A study of Homo sapiens with 12 samples.

Results

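The genes described here are the 4 neuronal intermediate filament genes NEFL, NEFM, NEFH and INA, and 6 genes of neuronal secretion and protein turnover, VGF, CPLX2, SCG2, SCG5, CHGB and UCHL1. They were chosen by name, with earlier results of these data known, and are 10 of the 19973 genes in the table. Their levels in the 4 groups are therefore described with no p-value. The members are part of the fit over all genes, and the number past its threshold is printed beside the share of all genes, with nothing read from it. RNA was sequenced from 2 established non-small cell lung cancer lines, H460 (a large cell carcinoma line) and A549 (a lung adenocarcinoma line). In each line, 3 libraries of non-treated cells (control) and 3 of cells given ISP-I at 10 µM for 48 h were compared, which makes 12 libraries. ISP-I is isovalerylspiramycin I, a component isolated from the macrolide antibiotic carrimycin. The labels name no engineered allele and no further agent in any group, and each line stands for a single cell culture model, so a difference between H460 and A549 is a difference between 2 lines.

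Neurofilaments are the intermediate filaments of axons. The light, medium and heavy subunits (NEFL, NEFM, NEFH) and alpha-internexin (INA) co-assemble into them, the light chain forms the core of the polymer, and the tails of the longer subunits project from it and set the calibre of the axon. Neurons and endocrine cells also store peptides in dense-core granules and release them on a calcium signal. Granins such as chromogranin B (CHGB), secretogranin II (SCG2) and the related precursor VGF are packed into these granules. SCG5 (7B2) is the chaperone of the prohormone convertase PCSK2, and complexin 2 (CPLX2) binds the SNARE complex and holds or helps the fusion of vesicles. UCHL1 (PGP9.5) is a ubiquitin hydrolase that is abundant in neurons and is used by pathologists as a neuroendocrine marker. Several of these genes are known targets of the repressor REST, which keeps neuronal genes low in other cells, and VGF is known as a gene induced by growth factors and cyclic AMP.

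The bases before the start of VGF and INA are shown because VGF had the highest level of the members with ISP-I in H460, and INA was at a mean of 17.7 FPKM in A549 controls and had no reads in H460 controls. Both windows come from RefSeq (GRCh38.p14), end at the base before the RefSeq start and are read 5' to 3' on the strand of the gene, and capitals mark the motifs found in them. The VGF window is chr7:101165570-101165819 on the minus strand, and the INA window is chr10:103276888-103277137 on the plus strand. The INA window lies within the span of NT5C2, which is on the opposite strand.
VGF: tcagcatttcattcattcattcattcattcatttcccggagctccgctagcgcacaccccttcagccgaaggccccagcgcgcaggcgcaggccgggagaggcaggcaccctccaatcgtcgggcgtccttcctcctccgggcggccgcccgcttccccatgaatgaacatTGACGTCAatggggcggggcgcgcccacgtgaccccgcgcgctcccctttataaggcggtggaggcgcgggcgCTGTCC
INA: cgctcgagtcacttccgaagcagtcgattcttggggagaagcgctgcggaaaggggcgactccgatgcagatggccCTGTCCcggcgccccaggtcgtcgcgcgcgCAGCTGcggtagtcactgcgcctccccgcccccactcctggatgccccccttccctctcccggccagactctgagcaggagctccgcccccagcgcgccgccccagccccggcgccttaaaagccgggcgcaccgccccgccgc
In VGF the capitals mark a cyclic AMP response element (CRE), TGACGTCA, from 79 to 72 bases before the start, and the letters GGACAG on the opposite strand from 6 to 1 bases before it. In INA they mark GGACAG on the opposite strand, from 174 to 169 bases before the start, and the E-box CAGCTG from 144 to 139 bases before it. GGACAG is a part of the REST site.

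Motifs were searched as exact letters on both strands in the 5 members with a window, INA, VGF, CPLX2, SCG5 and UCHL1, and in 35114 windows of the same length. The windows follow the RefSeq start, which is not always the gene start given below. The UCHL1 window (41256678 to 41256927) lies inside that gene span, and the CPLX2 window (175796283 to 175796532) almost wholly inside it. The SCG5 window ends inside it, at 32641709. The CRE was in 1 of the 5 members, VGF, and in 1.65% of all windows. Its shorter form TGACG, which overlaps it, was in VGF and SCG5 and in 21.2% of all windows. GGACAG was in 2 of 5 and in 17.2% of all windows, and CAGCTG in 1 of 5 and 14.0%. The other part of the REST site, TTCAGCACC (0.288% of all windows), the AP-1 motif TGANTCA (6.57%) and the EGR motifs GCGTGGGCG (0.721%) and GCGGGGGCG (4.72%) were in none of the 5. These matches describe letters in a window and show no binding.

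Depth was 14225849 to 17874422 reads on genes per library. FPKM, the deposited unit, is reads scaled by gene length and by the library total. Within groups, H460 ISP-I libraries 2 and 3 differed most (chi-square per degree of freedom 98.7), and A549 control library 3 stood apart from the other 2 (28.0 and 32.5, against 3.38 between those). When each library was left out in turn, the log2 change of each member tested kept its direction, with the exception of NEFM in H460. ISP-I moved the median of all genes tested in H460 by -0.15 on the log2 scale (0.02 in A549), and scaling by median-of-ratios brought it to 0.01. The labels do not say whether libraries came from separate cultures, so p-values measure the spread between these libraries. In bulk RNA, fewer expressing cells and less RNA per cell cannot be told apart.

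The lines carried epithelial keratins, with KRT8 at 194 FPKM in H460 controls and 650 in A549 controls, while EPCAM and CDH1 were near 0 in H460 (0.0473 and 0 FPKM). All 6 alveolar markers were under 1 FPKM in every group. Among 6 neuroendocrine markers, the transcription factors INSM1 and NEUROD1 had no reads in controls of either line and group means under 0.05 FPKM with ISP-I (up to 0.112 in a single library, for INSM1). The summed level of these markers was 5.42 to 7.23 FPKM in H460 controls and 13.5 to 19.2 with ISP-I, and 1.09 to 1.40 and 7.61 to 7.73 in A549. Most of this was chromogranin A (CHGA) and synaptophysin (SYP). The 6 neuron markers summed to 3.88 to 5.02 FPKM in H460 controls, 3.25 to 4.77 with ISP-I, 5.69 to 8.62 in A549 controls and 6.24 to 7.01 with ISP-I, and STMN2 and ELAVL4 were at or near 0. The 6 leukocyte markers summed to at most 6.49 FPKM, mostly CD14, and CD3E had no reads. The 6 fibroblast markers summed to 9.96 to 11.1 FPKM in H460 controls, 5.05 to 5.89 with ISP-I and at most 1.32 in A549.

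With ISP-I, VGF and CHGB were higher and CPLX2 was lower in both lines, while NEFL was lower in H460 and higher in A549. INA was high in A549, where it was higher with ISP-I, and was at or near 0 in H460. A gene was called where it changed over 2-fold on log2(FPKM + 1) with an adjusted p under 0.05 (limma, Benjamini-Hochberg over all genes tested). In H460, 9 of the 10 members passed the filter of a mean of 0.1 FPKM, and 2 were called higher and 2 lower, beside 25.7% of the 13423 genes tested that were called (10.5% higher, 15.2% lower). In A549 all 10 passed, and 4 were called higher and 1 lower, beside 7.71% of 13705 (4.2% higher, 3.51% lower). The ISP-I and control libraries did not overlap for 8 of the 10 members in H460 (6 higher, 2 lower), beside 72.7% of genes tested (29.6% higher, 43.1% lower). The 6 higher include INA, which had at most 2 reads in an H460 library and is not among the genes tested. In A549 the libraries did not overlap for 9 members (6 higher, 3 lower), beside 65.5% (34.8% higher, 30.7% lower). Since the members were chosen on these levels, nothing is read from these counts.

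**Figure D1:**
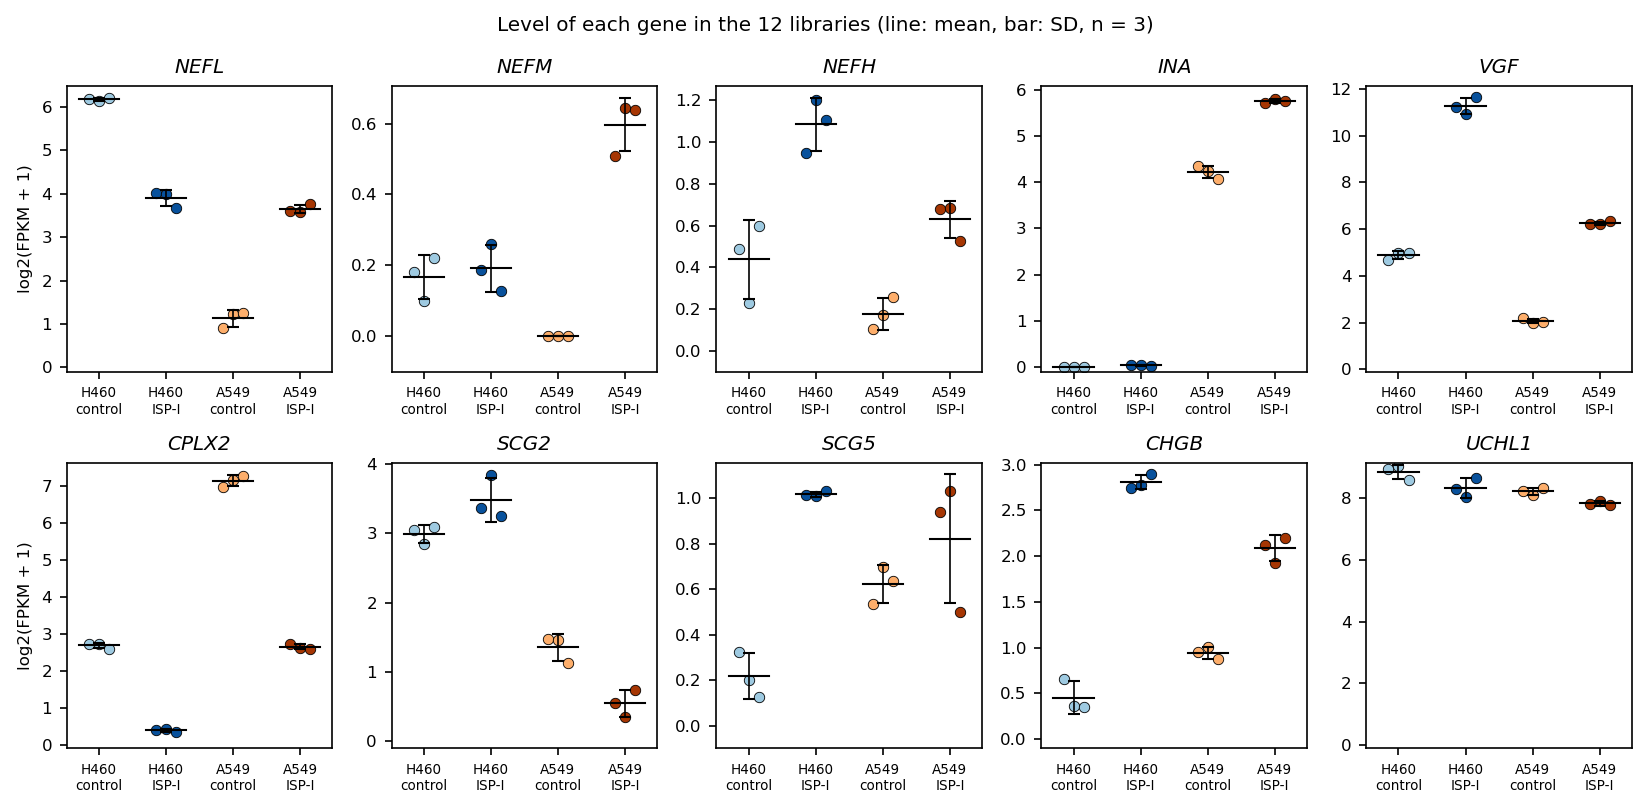
Level of each of the 10 genes as log2(FPKM + 1), 1 panel per gene with its own vertical scale. Points are the 12 libraries, horizontal lines the means and bars the SD of 3 libraries. VGF reached a mean of 2506 FPKM in H460 with ISP-I, NEFL changed in opposite directions in the lines, and CPLX2 was highest in A549 controls.

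NEFL, the light chain (chromosome 8, 24950955 to 24956721, minus strand, hg38, 4 exons), was the filament gene of H460. In H460 controls it was at 71.5, 68.9 and 73.2 FPKM, and with ISP-I at 15.1, 15 and 11.8. All 3 ISP-I libraries lay far below all 3 controls, a mean of 14.0 ± 1.88 against 71.2 ± 2.16 FPKM (SD, n = 3, here and for every value with ± that follows), 5.1-fold lower. In A549 the order was the opposite. Control libraries were at 0.874, 1.35 and 1.39 FPKM, and ISP-I libraries at 11.2, 10.9 and 12.5, so that the groups were again apart. The mean was 9.59-fold higher with ISP-I (11.6 ± 0.883 against 1.20 ± 0.287). The log2 change was thus -2.28 in H460 and 2.52 in A549. After treatment the levels of the lines overlapped, at 14.0 and 11.6 FPKM, from control levels that were 59.1-fold apart.

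INA (chromosome 10, 103277138 to 103290346, plus strand, 3 exons), alpha-internexin, was the filament gene of A549. The A549 controls were at 19.4, 17.8 and 15.9 FPKM, and the ISP-I libraries at 51.4, 54.4 and 52.9. No library of a group overlapped the other, and the mean was 2.99-fold higher with ISP-I (52.9 ± 1.52 against 17.7 ± 1.78). In H460 the gene had 0 reads in the 3 controls and 1 or 2 reads in each ISP-I library (0.0207 to 0.0369 FPKM), in all 5 reads, at least 1.48-fold above a floor of 3 reads over the summed depth of the controls. The A549 controls were at least 853-fold above the same floor. The first 468 bases of INA overlap NT5C2 on the opposite strand, and whether the counting used strand is not stated. NT5C2 was at 5.88 to 10.1 FPKM in the H460 libraries, where INA had at most 2 reads.

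NEFM, the medium chain (chromosome 8, 24913758 to 24919098, plus strand), lies 31856 bases from NEFL and was far lower. It had 0 reads in the 3 A549 controls and 23, 32 and 29 reads with ISP-I, at 0.424, 0.561 and 0.556 FPKM. The ISP-I mean was at least 27.2-fold above the floor of 3 reads over the A549 controls. In H460 its controls (0.134, 0.0724 and 0.166 FPKM) and ISP-I libraries (0.139, 0.198 and 0.0927) overlapped, with 4 to 12 reads each. The log2 change in H460 was 0.02 and turned to -0.01 without control library 2 or without ISP-I library 2.

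NEFH, the heavy chain (chromosome 22, 29480218 to 29491390, plus strand), was low everywhere but higher with ISP-I in both lines. In H460 it was at 0.403, 0.173 and 0.513 FPKM in controls and 0.929, 1.30 and 1.15 with ISP-I, a mean 3.1-fold higher. In A549 it was at 0.0741, 0.125 and 0.196 FPKM in controls and 0.600, 0.605 and 0.441 with ISP-I, a mean 4.16-fold higher. The groups did not overlap in either line. Behind the controls stood 10 to 29 reads in H460 and 4 to 11 in A549. Because 1 is added before the log, the log2 changes were 0.65 and 0.45, under the 2-fold threshold.

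On the FPKM scale, which is per length, the 4 filament genes summed to 71.7 ± 2.38 FPKM in H460 controls and 15.3 ± 1.92 with ISP-I. In A549 the sum was 19.0 ± 1.47 FPKM in controls and 65.5 ± 1.64 with ISP-I, so that the line with the higher sum changed with treatment. NEFL made up 99.3% ± 0.289 of the sum in H460 controls and 91.4% ± 1.57 with ISP-I, where NEFH made up 7.47% ± 1.59. In A549, INA made up 92.9% ± 2.26 of the sum in controls and 80.8% ± 1.13 with ISP-I, and the share of NEFL was 6.41% ± 1.90 and 17.6% ± 1.26. NEFM was under 1% of the mean sum in all 4 groups. NEFL, NEFM and NEFH each overlap a long non-coding RNA gene on the opposite strand, over 781, 960 and 894 bases, and since the strand setting is not stated, reads of these cannot be told apart from theirs.

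**Figure D2:**
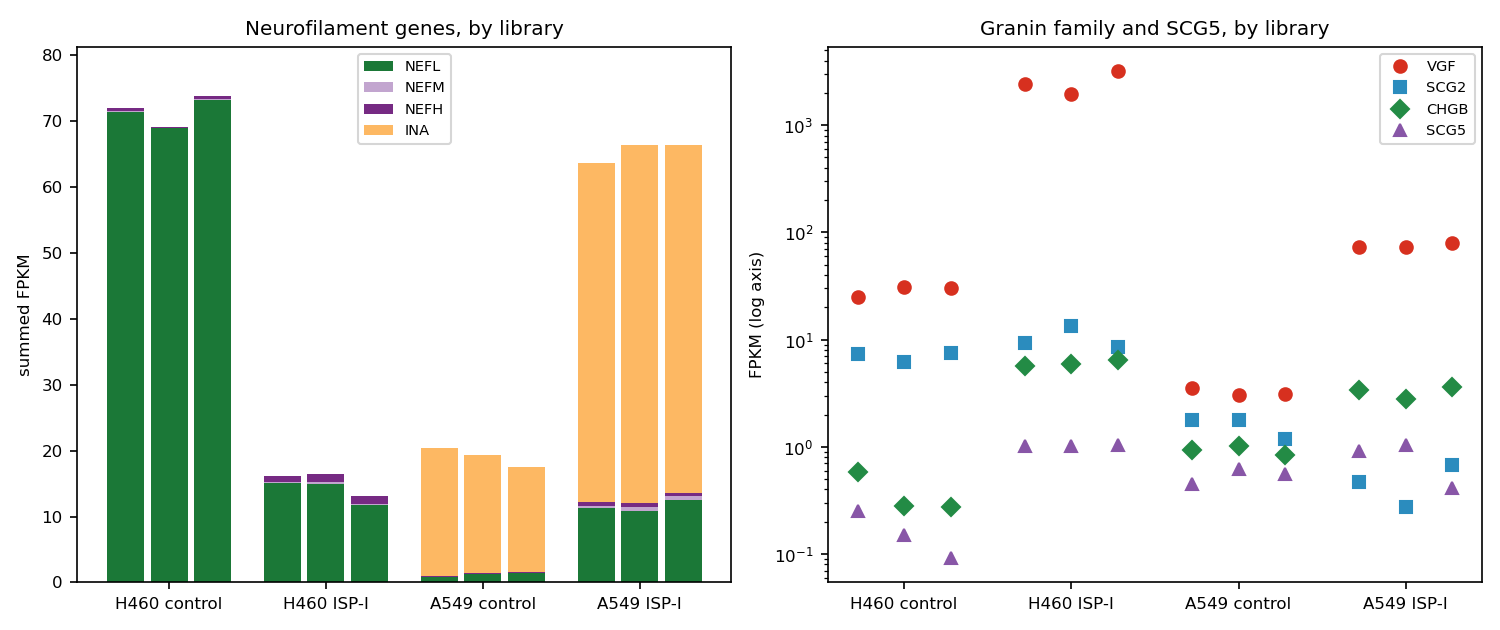
Left, FPKM of the 4 filament genes stacked for each of the 12 libraries. Right, FPKM of VGF, SCG2, CHGB and SCG5 in each library on a log axis. H460 bars are almost all NEFL and A549 bars mostly INA, and VGF is the highest of its family in all 12 libraries.

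VGF (chromosome 7, 101162509 to 101165569, minus strand, 2 exons), the precursor of several neuropeptides, had the highest level of the 10 genes in H460 with ISP-I. The H460 controls were at 24.8, 30.7 and 30.6 FPKM, and the ISP-I libraries at 2404, 1938 and 3177. The lowest ISP-I library was far above the highest control, and the mean was 87.4-fold higher (2506 ± 625 against 28.7 ± 3.36). VGF then took 0.519 to 0.851% of all reads on genes (86519 to 126328 reads). By FPKM it ranked 6 to 9 in those libraries, against 1475 to 1840 in the controls. The ISP-I libraries also differed among themselves, and leaving out any 1 library gave a log2 change of 6.19 to 6.55.

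In A549, VGF was at 3.57, 3.02 and 3.11 FPKM in controls and 73.3, 72.5 and 79.7 with ISP-I. The groups were again far apart, with a mean 23.3-fold higher with ISP-I (75.2 ± 3.94 against 3.23 ± 0.294). The rank moved from 7709 to 8170 in controls to 448 to 506 with ISP-I. Treated A549 cells were thus above untreated H460 cells, and controls of the lines were 8.87-fold apart. The log2 change was 6.38 in H460 and 4.17 in A549.

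CHGB (chromosome 20, 5911510 to 5925353, plus strand, 5 exons), a granin that promotes granule formation, was also higher with ISP-I in both lines, from low levels. In H460 it was at 0.578, 0.281 and 0.272 FPKM in controls and 5.71, 5.86 and 6.43 with ISP-I, a mean 15.9-fold higher. In A549 it was at 0.933, 1.01 and 0.838 FPKM in controls and 3.36, 2.81 and 3.61 with ISP-I, a mean 3.52-fold higher. No libraries overlapped, and the order of the lines changed, since the controls were 2.46-fold lower in H460 and the treated cells were higher there.

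SCG2 (chromosome 2, 223596940 to 223602361, minus strand, 2 exons), the precursor of secretoneurin, differed in direction between the lines. In H460 it was at 7.28, 6.21 and 7.50 FPKM in controls and 9.31, 13.4 and 8.50 with ISP-I. Every ISP-I library was above every control, by a mean of 1.49-fold. In A549 it was at 1.77, 1.77 and 1.18 FPKM in controls and 0.468, 0.272 and 0.676 with ISP-I. There every ISP-I library was below every control, and the mean was 3.34-fold lower, with 11 to 25 reads behind the ISP-I values. The log2 changes, 0.49 and -0.81, were both under the 2-fold threshold.

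SCG5 (chromosome 15, 32641676 to 32697098, plus strand, 6 exons) was at 0.253, 0.150 and 0.0917 FPKM in H460 controls, which is 3 to 8 reads, and at 1.02, 1.01 and 1.04 with ISP-I. The groups did not overlap and the mean was 6.21-fold higher. In A549 the controls (0.448, 0.620 and 0.555 FPKM) and the ISP-I libraries (0.915, 1.05 and 0.413) overlapped. Its partner PCSK2 had no reads in controls of either line, and means of 0.0635 FPKM in H460 and 0.0472 in A549 with ISP-I. The SCG5 gene lies within the read-through gene ARHGAP11A-SCG5 on the same strand and under the antisense SCG5-AS1. How reads shared with these were counted is not stated, so the level of SCG5 could be too high or too low. ARHGAP11A itself was at 7.75 to 13.0 FPKM in H460 controls and 3.85 to 5.70 with ISP-I.

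The sum of VGF, SCG2, CHGB and SCG5 was 36.2 ± 2.92 FPKM in H460 controls and 2524 ± 624 with ISP-I, and 6.27 ± 0.534 and 79.7 ± 4.13 in A549. VGF made up 79.0% ± 3.46 of it in H460 controls and 99.3% ± 0.274 with ISP-I. In A549, where SCG2 (24.9%) and CHGB (14.8%) held larger shares in controls, VGF went from 51.6% ± 4.02 to 94.3% ± 0.360. The secretory genes thus differed with ISP-I by unequal amounts, and SCG2 in A549 was lower while VGF and CHGB were higher.

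CPLX2 (chromosome 5, 175796310 to 175884021, plus strand, 4 exons) had the highest control level of the secretory genes in A549 and was lower with ISP-I in both lines. In A549 it was at 126, 145 and 155 FPKM in controls and 5.61, 5.16 and 5.05 with ISP-I. The groups were apart by a mean of 26.9-fold (141.9 ± 14.3 against 5.27 ± 0.299), and the rank went from 185 to 228 down to 6173 to 6559. In H460 it was at 5.66, 5.63 and 5.09 FPKM in controls and 0.311, 0.351 and 0.259 with ISP-I, a mean 17.8-fold lower. The treated A549 cells thus overlapped the untreated H460 cells. The log2 change was -4.51 in A549 and -2.31 in H460, where the treated level is under the added 1 FPKM.

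UCHL1 (chromosome 4, 41256413 to 41268455, plus strand, 9 exons) was the member with the highest control level in both lines. In H460 it was at 486, 522 and 383 FPKM in controls and 311, 261 and 403 with ISP-I, so that the groups overlapped. The mean was 325.1 ± 71.7 FPKM with ISP-I and 464.0 ± 72.1 in controls, and the log2 change of -0.52 was -0.24 after median-of-ratios scaling. In A549 it was at 295, 271 and 321 FPKM in controls and 221, 239 and 219 with ISP-I. There the groups did not overlap, and the mean with ISP-I was 0.764 of that in controls. UCHL1 ranked 34 to 127 by FPKM over the 12 libraries. The first 315 bases of the gene overlap UCHL1-DT, a non-coding gene on the opposite strand, whose reads cannot be told apart either.

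**Figure D3:**
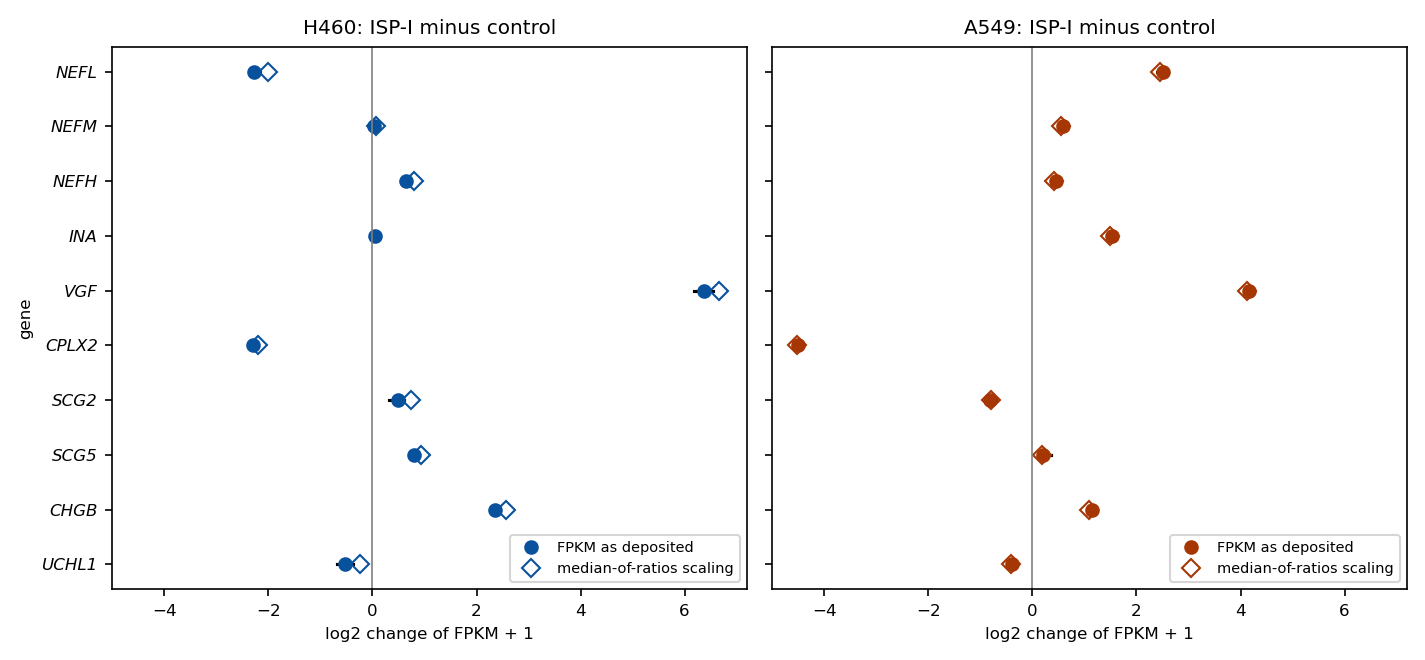
Log2 change of FPKM + 1 with ISP-I against control for each gene, H460 left and A549 right. Filled points are the deposited FPKM, and black bars span the changes found as each library was left out in turn. Open diamonds follow median-of-ratios scaling. INA in H460 did not pass the filter and has no bar or diamond. VGF lies at 6.38 and 4.17, CPLX2 at -2.31 and -4.51, and NEFL at -2.28 and 2.52.

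Between the control cells of the lines, NEFL (59.1-fold), VGF (8.87-fold), SCG2 (4.44-fold) and UCHL1 (1.57-fold) were higher in H460, and INA, CPLX2 (26.0-fold), SCG5 (3.28-fold) and CHGB (2.46-fold) were higher in A549. Control libraries did not overlap for these genes or for NEFM, which had 4 to 9 reads in H460 controls and none in A549. They overlapped for NEFH. The share of all genes without overlap between the control lines was not computed, so nothing is read from this. Of the 9 members tested, 3 were called higher and 2 lower in H460, beside 14.4% of 13532 genes tested (5.64% higher, 8.78% lower). The difference between the lines in the change with ISP-I (H460 minus A549, log2) was -4.79 for NEFL, -1.49 for INA, 2.21 for VGF, 2.20 for CPLX2, 1.30 for SCG2 and 1.21 for CHGB. These 6 of the 10 members passed the call (4 higher, 2 lower), beside 16.0% of 13953 genes tested (5.93% higher, 10.1% lower). INA was at or near 0 in H460 before and after treatment, so its difference is the higher level with ISP-I in A549. For CPLX2 the difference was 0.94 with a pseudocount of 0.1 and 0.92 with voom on recovered reads, under the threshold. The other 4 differences were 0.60 or less in size on log2(FPKM + 1), where low genes are shrunk. For SCG5 the difference was 1.73 with the pseudocount of 0.1 and 2.48 with voom, and for NEFM it was -2.49 and -5.26.

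Genes with the most similar pattern were ranked by Pearson's r of log2(FPKM + 1) over the 12 libraries, which fall into 4 groups, among the 10593 genes that averaged 1 FPKM or more. VGF was most like NABP1 (0.996), ZFP36 (0.996) and PIM3 (0.994). PIM3, a kinase, was at 28.6 FPKM in H460 controls, 292 with ISP-I, 13.5 in A549 controls and 45.8 with ISP-I. CHGB was most like NDRG4 (0.994), SOX15 (0.993) and BLOC1S3 (0.990), and CPLX2 was most like the adrenergic receptor gene ADRA1B (0.996), PDGFRL (0.989) and NECTIN2 (0.989). INA was most like CCBE1, KLHDC7A and EDA2R (each 0.999), which were near 0 in H460 and at 2.53 to 14.3 FPKM in A549. The nearest genes to NEFL were ADARB1 (0.982), RAP1GAP2 (0.981) and PISD (0.974), and ADARB1, an RNA editing enzyme, was at 6.41 and 3.59 FPKM in H460 and 1.94 and 3.15 in A549 (control and ISP-I). SCG2 was most like SALL1 (0.990) and MTPN (0.980), NEFH was most like CD163L1 (0.958), ZNF830 (0.957) and NABP1 (0.952), SCG5 was most like ZCWPW1 (0.933), UCN (0.926) and KCNMA1 (0.922), and UCHL1 was most like RPL3 (0.973), PRDX1 (0.970) and IFI6 (0.964). Among the members themselves, r of NEFL with INA was -0.62 and with NEFM 0.26, and these values describe 4 groups rather than 12 independent conditions.

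Around these genes, 8 lists of related genes were examined, 239 genes in all, none of them a member. In what follows, rose and fell mean called higher and called lower. In H460, 38 of the 174 tested were called (17 higher, 21 lower), 21.8% beside 25.7% of all genes tested. Median-of-ratios scaling turned this split to 25 higher and 20 lower. In A549, 23 of 172 were called (7 higher, 16 lower), 13.4% beside 7.71%. Of the called genes, 4 were higher in both lines, 11 were lower in both, and none was called in opposite directions. The lists were chosen with earlier results known, so these shares are descriptions.

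**Figure D4:**
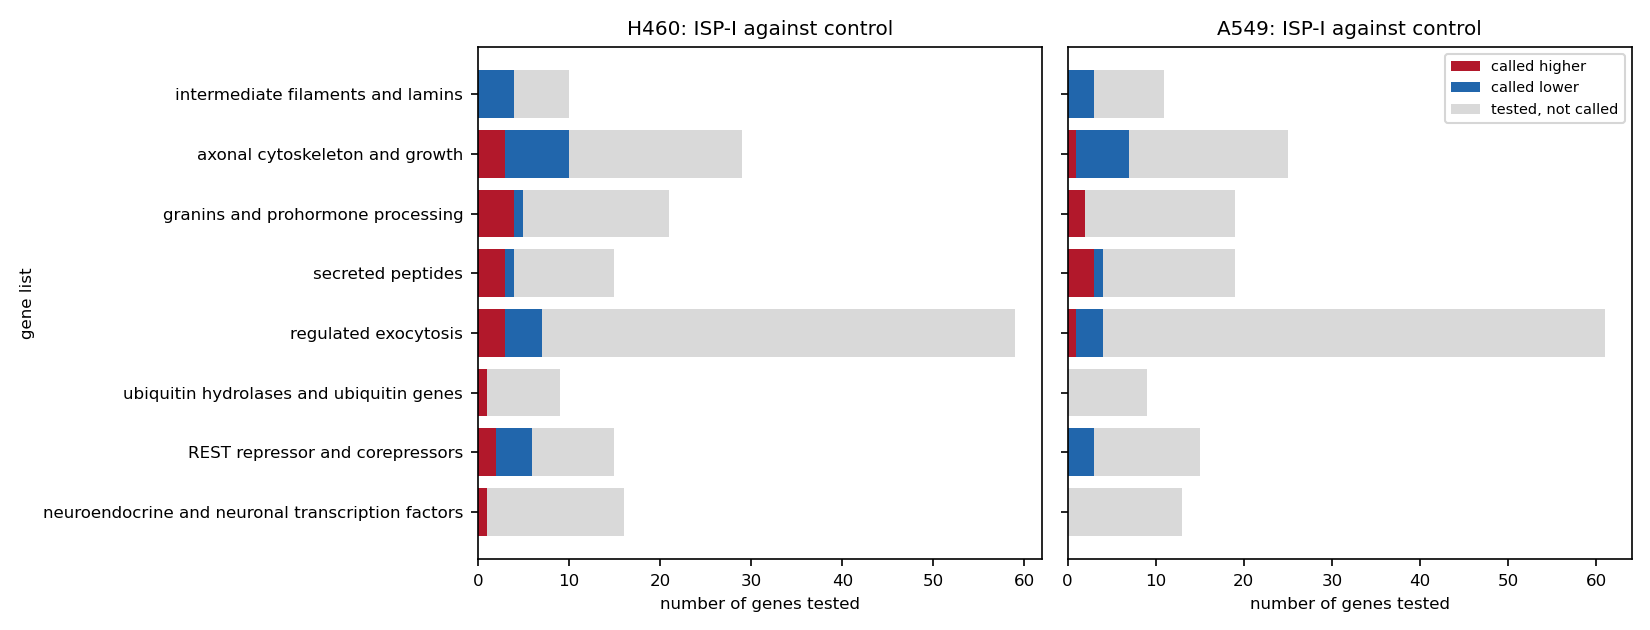
Number of genes tested in each of 8 related lists, split into those called higher (red), called lower (blue) and not called (grey) with ISP-I, H460 left and A549 right. The called filament and lamin genes were all lower, 4 in H460 and 3 in A549. Of the 59 and 61 exocytosis genes tested, 11.9% and 6.56% were called, beside 25.7% and 7.71% of all genes tested.

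Among other intermediate filament and lamin genes, 4 of 10 tested fell in H460 and 3 of 11 in A549, and none was called higher. At an adjusted p under 0.05 and any fold, 1 was higher and 5 lower in H460, and 5 were higher and 3 lower in A549. Nestin (NES), the filament of neural progenitors, fell in H460 from 35.6 ± 2.16 to 1.46 ± 0.397 FPKM (log2 change -3.90, SE 0.138, limma adjusted p = 2.69e-07) and in A549 from 1.94 ± 0.178 to 0.172 ± 0.0609 (limma adjusted p = 4.41e-06). The nuclear lamins LMNB1 and LMNB2 fell in both lines. In H460, LMNB1 went from 85.3 ± 6.39 to 8.62 ± 1.03 FPKM and LMNB2 from 108 to 22.8. In A549, LMNB1 went from 57.3 ± 3.10 to 19.3 ± 0.0491 FPKM (limma adjusted p = 1.24e-06) and LMNB2 from 110 to 46.7. Synemin (SYNM) fell in H460 from 12 ± 0.344 to 3.34 ± 0.122 FPKM, and was at 13.1 ± 1.17 and 18.2 ± 1.43 in A549, not called. LMNA (225 and 243 FPKM in H460) and the linker plectin, PLEC (65.3 and 74.7), were not called in either line. The median log2 change was -0.25 in H460 and 0.25 in A549, beside -0.15 and 0.02 over all genes, and peripherin (PRPH), the other neuronal filament gene, was under 0.1 FPKM in each group.

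Of the axonal cytoskeleton and growth genes, 3 of 29 tested rose and 7 fell in H460, and 1 of 25 rose and 6 fell in A549. The microtubule-linked kinase DCLK1 rose 84.1-fold in H460, from 0.550 ± 0.039 to 46.2 ± 6.87 FPKM (log2 change 4.92, SE 0.131, limma adjusted p = 9.48e-08), and was not called in A549 (1.29 ± 0.221 and 2.17 ± 0.074). MARCKS, an actin-binding substrate of protein kinase C, rose in H460 from 1.40 to 4.81 FPKM and was at 37.1 and 20 in A549, not called. TUBB3, the neuronal beta-tubulin, was the other gene that rose in H460 (1.67 to 5.73 FPKM, limma adjusted p = 0.00014) and is named after its values were seen. DPYSL2 (CRMP2), which guides axon growth, fell in both lines, in H460 from 13.8 ± 0.563 to 0.378 ± 0.088 FPKM, and in A549 from 16.2 ± 0.539 to 4.66 ± 0.125. Its relative DPYSL3 fell in A549 (33.1 to 8.38 FPKM, limma adjusted p = 4.26e-07), and the adhesion molecule L1CAM in H460 (10.3 to 1.18, limma adjusted p = 1.57e-06). STMN4, a tubulin-binding stathmin, had no reads in A549 controls and reached 2 ± 0.337 FPKM with ISP-I, at least 95.9-fold above the floor of 3 reads over the group. The abundant BASP1 (187 and 168 FPKM in H460) and TUBB2A (39.1 and 67.0) were not called in either line, and TUBB2A passed in H460 after median-of-ratios scaling (log2 change 1.04). The list's median was -0.60 in H460 and 0.03 in A549.

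Among granin and prohormone processing genes, 4 of 21 tested rose and 1 fell in H460, and 2 of 19 rose in A549. HID1, needed for dense-core granule maturation, rose in both lines, in H460 from 0.231 ± 0.0656 to 6.96 ± 0.613 FPKM (30.1-fold, log2 change 2.69, SE 0.107, limma adjusted p = 4.03e-07) and in A549 from 2 ± 0.187 to 6.40 ± 0.546 (limma adjusted p = 1.11e-05). Chromogranin A (CHGA) rose in A549 from 0.355 ± 0.0871 to 5.23 ± 0.0983 FPKM (14.7-fold, limma adjusted p = 5.98e-07) and was at 4.88 ± 0.606 and 4.23 ± 0.912 in H460, not called. In H460 the granule phosphatase-like protein PTPRN rose from 1.67 to 8.62 FPKM (limma adjusted p = 3.68e-06). In A549 PTPRN had no reads in controls and a mean of 0.133 FPKM with ISP-I, and was not tested. The convertase PCSK1 rose in H460 from 0.799 to 2.67 (log2 change 1.03), a call lost without control library 2 (0.97) or ISP-I library 2 (0.98). CCDC186, which acts with HID1, also rose in H460 and is named after its values were seen (0.594 to 3.71 FPKM, limma adjusted p = 0.00109). QPCT, the enzyme that closes peptide ends to pyroglutamate, fell in H460 from 111 to 43.6 FPKM and was at 9.68 and 14.5 in A549. The lysosomal proteases CTSL (179 and 156 FPKM in H460) and CTSB (18.5 and 15.7) were not called in either line. The list's median was -0.23 in H460 and -0.07 in A549.

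Of the secreted peptides, 3 of 15 tested rose and 1 fell in H460, and 3 of 19 rose and 1 fell in A549. Adrenomedullin (ADM), a vasodilator peptide, rose 10.4-fold in H460, from 5.12 ± 0.913 to 53.3 ± 3.74 FPKM (limma adjusted p = 6.17e-07), and 8.26-fold in A549, from 30.4 ± 0.978 to 251 ± 6.87 (limma adjusted p = 7.84e-08). Cholecystokinin (CCK) rose in A549 from 0.866 ± 0.0502 to 7.29 ± 0.543 FPKM, and in H460 from 0.0106 ± 0.0184 to 2.96 ± 0.352, where the controls held almost no reads. Galanin (GAL) rose in A549 (2.29 to 7.72 FPKM, limma adjusted p = 1.64e-05) and was at 35.0 and 23.2 in H460, not called. PTHLH, the parathyroid hormone-related peptide, rose in H460 (0.601 to 2.62 FPKM). SECTM1, a secreted immune protein and no peptide hormone, fell in H460 (18.7 to 3.16 FPKM), and NTS, neurotensin, named after its values were seen, fell in A549 (2.56 to 0.752, log2 change -1.03, limma adjusted p = 0.000375), a call lost without control library 3 (-0.94) or ISP-I library 2 (-0.90). NMB (8.04 and 4.28 FPKM in H460) and UCN (1.67 and 3.85) were not called in either line. The median log2 change was 0.51 in H460 and 0.32 in A549, or 0.50 and 0.22 with the genes that had a group without reads set to their floor.

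Among regulated exocytosis genes, 3 of 59 tested rose and 4 fell in H460, and 1 of 61 rose and 3 fell in A549. The syntaxin STX3, a SNARE of apical membranes, rose in both lines. In H460 it went from 2.99 ± 0.169 to 19.4 ± 2.20 FPKM (6.5-fold, limma adjusted p = 1.19e-06), and in A549 from 3.82 ± 0.0453 to 10.3 ± 0.440 (limma adjusted p = 4.44e-06). The synaptobrevin VAMP1 and the vesicle GTPase RAB3D fell in both lines. In H460, RAB3D went from 5.23 to 0.222 FPKM (limma adjusted p = 9e-07) and VAMP1 from 5.83 to 0.677. In A549, RAB3D went from 3.94 to 1.36 FPKM and VAMP1 from 3.26 to 0.881. STX2 (14.8 to 1.96 FPKM) and RAB3B (30.4 to 5.17) fell in H460, and SYT13, a synaptotagmin, fell in A549 (9.12 to 2.99). SYP, the synaptic vesicle protein, rose in H460 from 1.36 ± 0.289 to 11.9 ± 2.02 FPKM (limma adjusted p = 3.1e-06) and was at 0.871 and 2.25 in A549, not called. CPLX1, the paralogue of CPLX2, is named after its values were seen. It rose in H460 from 1.96 ± 0.509 to 8.39 ± 2.46 FPKM (limma adjusted p = 0.000122), while CPLX2 was lower there, and was at 0.332 and 1.54 in A549 (log2 change 0.93, not called). The list's median was -0.03 in H460 and -0.05 in A549, and the abundant VAMP3 (24.2 and 12.6 FPKM in H460) and SYPL1 (31.1 and 29.1) were not called.

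Of 9 ubiquitin hydrolase and ubiquitin genes, none was called in A549 by limma, on FPKM or with voom on the recovered reads, and 4 were higher and 3 lower there at an unadjusted p under 0.05. The median log2 change of this list was -0.21 in H460 and 0.31 in A549. RPS27A (101 and 88.8 FPKM in H460) and UBA1, the enzyme that activates ubiquitin (162 and 108), were called in neither line.

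Among REST and its corepressors, 2 of 15 tested rose and 4 fell in H460, and 3 of 15 fell in A549. REST itself rose in H460 from 2.49 ± 0.491 to 11.1 ± 3.76 FPKM (4.43-fold, log2 change 1.75, SE 0.217, limma adjusted p = 0.000132) and was at 4.45 ± 1.16 and 6.85 ± 0.304 in A549, not called. RCOR1 (CoREST) rose in H460 from 11.3 to 35.8 FPKM. The histone-modifying HDAC1 (26.0 to 6.72 FPKM) and EHMT2 (13.4 to 3.66) fell in H460. The phosphatases CTDSP1 (22.3 to 5.42) and CTDSPL (2.75 to 0.187), which are known to stabilise REST, also fell there. In A549, SIN3A (10.7 to 3.92 FPKM), CTDSP2 (16.8 to 7.61) and CTDSPL (4.43 to 0.936) fell. HDAC1 reached a log2 change of -1.0 in A549, just short of the threshold. RCOR2, RCOR3, SIN3B, HDAC2, KDM1A and SRRM3 were called in neither line, and SRRM4, which splices REST in neurons, was under 0.05 FPKM in all groups. The list's median was -0.74 in H460 and -0.25 in A549.

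Of the neuroendocrine and neuronal transcription factors, 1 of 16 tested was called higher in H460 and none lower, while 8 were higher and 5 lower there at an adjusted p under 0.05 and any fold. None of 13 was called in A549 by limma, where 3 were higher and 5 lower at an unadjusted p under 0.05. In H460, 3 were called after median-of-ratios scaling and 9 with voom, which called 1 in A549. ATF1, a factor of the CREB family, was the gene that rose, from 13.5 ± 2.82 to 58.5 ± 6.83 FPKM (log2 change 2.05, limma adjusted p = 1.24e-05). It was at 11.1 and 21.9 FPKM in A549. Between the control lines, FOXA2 (at 0 reads in H460 and 12.9 ± 2.13 FPKM in A549) and SOX4 (5.18 and 18.7) were higher in A549, and FOXA1 (16.1 and 3.60) was higher in H460. SOX4 and the coactivator CRTC2 (17.3 and 30.3 FPKM in H460) were not called with ISP-I in either line. The list's median was 0.11 in H460 and -0.12 in A549.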

How the data were processed

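RNA of H460 and A549 cells, control or ISP-I (10 µM, 48 h), was sequenced as 150 bp paired-end reads. The authors used FastQC for filtering, HISAT2 for alignment to hg38 and HTSeq 0.9.1 for counting, and deposited FPKM. The deposited length column holds another unit, bases. Annotation version and strand setting are not given in the sources used here. FPKM times length was divided by a step fitted for each library, the value of a single read. For 100% of values the result was a whole number within 0.02, and these reads were recovered as counts. Of the lines, 4 were pieces of an annotation cell and were left out.

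The members and gene lists were chosen with earlier results of these data known. Columns gave line and treatment only, and libraries were numbered by their order in a group. Log2(FPKM + 1) was compared with limma 3.58.1 (R 4.3.3, mean-variance trend), keeping genes that averaged 0.1 FPKM or more. The interaction of line and treatment was fitted on all 12 libraries. P-values were adjusted by Benjamini-Hochberg, and calls needed over 2-fold (1 in log2) with an adjusted p under 0.05. A fold against a group at 0 used a floor of 3 reads over the group, which covers counting error only. Alternatives were adding 0.1, a filter at 1 FPKM, no filter, median-of-ratios scaling, limma voom on the recovered reads, a single fit of all libraries and leaving out each library. FPKM was divided by scaling factors of 0.842 to 0.855 for H460 ISP-I libraries, 1.01 to 1.04 for their controls and 1.03 to 1.09 for A549. Named genes were all members, in each list and comparison up to 3 called genes with the smallest p, up to 2 of the highest mean level called in neither line, all genes of the REST list, the genes most similar to a member, and cell type markers, and a few of these are not reported here. Gene positions of 85.9% of genes, and of all 10 members, were the same in GENCODE 44. Python 3.11.15, pandas 2.3.3 and numpy 2.4.6 were used, and the fits were tested on simulated data.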

Additional observations from a re-analysis of the deposited data

Results flagged for a closer look

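NEFL changed in opposite directions in the lines. Every ISP-I library was below every control in H460 (log2 change -2.28) and above every control in A549 (2.52). SCG2 moved the other way, above all controls in H460 (0.49) and below all of them in A549 (-0.81). Both genes were picked with these values known, so the differences are descriptions and no p is given for them.

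The change with ISP-I differed between the lines by over 1 on the log2 scale, with an adjusted p under 0.05 for the interaction (limma, Benjamini-Hochberg), for 33 of the 180 related genes tested (14 with the higher value in H460, 19 with the lower), beside 16.0% of all genes tested. Median-of-ratios scaling gave 19 and 17. Written as the H460 change minus the A549 change, the filament and lamin genes were NES at -2.57, SYNM at -2.03 and LMNB1 at -1.65. Among axonal genes, DCLK1 was at 4.45, DPYSL2 at -1.83 and L1CAM at -2.40. Of the granin and processing genes, PTPRN was at 1.67, CHGA at -2.38 and QPCT at -1.87. PTPRN had no reads in A549 controls, and its ISP-I mean there was at least 15.9-fold above the floor, against 5.17-fold higher in H460. The sign of its difference turned with voom, as given below. Among peptides, PTHLH was at 1.22, SECTM1 at -2.04 and GAL at -2.0. For vesicle genes the differences were -2.87 for RAB3B, 1.30 for SYT13 and -1.50 for STX2. REST was at 1.20, EHMT2 at -1.43, CTDSP1 at -1.17 and ATF1 at 1.11. SYT13 was near 0 in H460 before and after treatment, so its difference is the fall in A549.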

How the results depend on the processing

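Limma voom on recovered reads called 90 related genes in H460 (48 higher, 42 lower, against 38, 17 and 21), 51 in A549 (24 and 27, against 23, 7 and 16), 62 for the difference of the changes (32 and 30, against 33, 14 and 19) and 67 between the control lines (32 and 35, against 37, 19 and 18). A pseudocount of 0.1 called 87 in H460 (37 and 50), 47 in A549 (23 higher), 66 for the difference (26 and 40) and 62 between control lines (30 and 32). Under these alternatives, which shrink low genes less, 8 members in A549 passed 2-fold (5 in the values reported). With voom, 8 members passed it between the control lines (5 reported). In H460, NEFH (1.47 with the pseudocount of 0.1 and 2.01 with voom) and SCG5 (2.13 and 2.92) passed it only under these alternatives. The share of all genes past 2-fold under the same settings is not given here, so nothing is read from these member counts. Leaving out each library gave 38 to 41 calls in H460, 21 to 26 in A549, 31 to 39 for the difference and 37 to 40 between control lines.

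The difference of the changes turned for CCK, from -0.18 to 4.23 with voom and 1.86 with a pseudocount of 0.1, and for PTPRN, from 1.67 to -2.31 with voom. Both have a control group at or near 0 reads. With voom the call of the difference was also lost for NES (-0.80), SECTM1 (-1.24), SYT13 (0.26) and CTDSP1 (-0.97), the last also with median-of-ratios scaling (-0.90). NEFM in H460 went from -0.01 (without control library 2 or ISP-I library 2) to 0.06 as each library was left out. Leaving out a library lost some calls, at 0.82 to 0.99 in size. In H460 these were PCSK1 (without control library 2 or ISP-I library 2) and STMN1 (control library 1 or 2, ISP-I library 1 or 2). In A549 they were CTDSP2 (control library 3), RAB3D (control library 2) and NTS (control library 3 or ISP-I library 2). Between controls they were PLEC and NTS (H460 library 1), NTS also without A549 library 2, SYNC (A549 library 1) and GAP43 (H460 library 3). The difference was lost for REST and CCDC186 without H460 ISP-I library 2. For ATF1 it was lost without A549 control library 1 or H460 control library 2. MARCKSL1 (-1.01 with all libraries) lost it without several single libraries, at -0.88 to -0.99. With voom and with a pseudocount of 0.1 the difference of CPLX2 (0.92 and 0.94) was under the threshold. The cause was not tested. Median-of-ratios scaling, the filters and the single fit kept the total counts of calls within 1.5 times. No paired analysis was possible because the columns carry no replicate numbers shared between groups. Depth limits NEFM, NEFH and SCG5, with 0 to 82 reads a library.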
